A study of Mus musculus with 6 samples.

Results

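The caseins and whey milk proteins were followed through RNA sequencing of mouse mammary gland as 8 genes chosen by symbol: Csn1s1, Csn2, Csn1s2a, Csn1s2b, Csn3, Wap, Lalba and Wfdc18. Earlier results of these data were known when the genes were chosen. All 8 were found among the 17464 gene symbols of the deposited tables. The libraries came from wild-type C57BL/6 mice at postnatal day 45, an age at which a virgin gland is in puberty; pregnancy or lactation is not named in the labels. The 2 groups were 3 libraries from glands of mice given recombinant mouse CXCL14 protein, a chemokine, and 3 libraries from glands of untreated mice. The labels do not state how much CXCL14 was given, by which route or for how long. They also do not say whether each library is its own animal, so the p-values reflect only how much these libraries vary, which may be technical. Endothelial cells are named in the title of the series, but the tissue label of every library is mammary gland.

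Milk proteins are made by secretory (alveolar) cells of the luminal epithelium. Caseins assemble with calcium phosphate into micelles, and whey proteins stay in solution. Prolactin, acting through its receptor Prlr, the kinase Jak2 and the transcription factors Stat5a and Stat5b, drives these genes in pregnancy and lactation, together with glucocorticoid and with the transcription factor Elf5, which commits luminal cells to the secretory fate. Transcripts of some milk proteins can already be found at low level in virgin glands.

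The 5 casein genes lie in a cluster. In the RefSeq gene order of GRCm38.p6, Csn1s1 and Csn2 are neighbouring protein-coding genes, followed by Csn1s2a and Csn1s2b, and then, after Prr27, Odam and BC037156, by Csn3. Promoter windows of the members were also described, and shared control of these genes was not tested. RefSeq windows were found for 6 of the 8 genes, and the 250 bases before the annotated start were searched for TTCNNNGAA, the core of the STAT5 site, which reads the same on both strands. Of the 6 windows 2 held a match, those of Csn1s1 and Csn2, beside 7.18% of 27025 windows of the same length taken once per symbol. Both are shown 5′ to 3′ with the match in capitals, at chr5:87665958-87666207 on the plus strand for Csn1s1 and at chr5:87699426-87699675 on the minus strand for Csn2, and the window of Wap, at chr11:6638650-6638899 on the minus strand, is shown as one without a match (all GRCm38.p6, upstream of the transcription start).
Csn1s1: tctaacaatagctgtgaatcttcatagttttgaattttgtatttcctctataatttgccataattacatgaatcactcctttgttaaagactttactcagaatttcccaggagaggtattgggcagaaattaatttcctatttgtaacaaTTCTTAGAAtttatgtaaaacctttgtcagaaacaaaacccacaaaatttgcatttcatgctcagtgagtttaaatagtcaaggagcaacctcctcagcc
Csn2: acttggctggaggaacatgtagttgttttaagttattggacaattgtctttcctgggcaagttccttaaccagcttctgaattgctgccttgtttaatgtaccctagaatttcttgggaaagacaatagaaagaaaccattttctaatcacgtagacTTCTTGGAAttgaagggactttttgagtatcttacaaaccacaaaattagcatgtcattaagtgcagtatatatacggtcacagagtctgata
Wap: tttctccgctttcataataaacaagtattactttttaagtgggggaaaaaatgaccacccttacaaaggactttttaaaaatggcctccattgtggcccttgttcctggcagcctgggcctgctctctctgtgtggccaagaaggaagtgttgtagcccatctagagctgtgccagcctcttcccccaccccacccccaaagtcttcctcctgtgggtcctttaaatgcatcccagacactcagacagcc
The match in Csn1s1 is TTCTTAGAA and that in Csn2 is TTCTTGGAA. They begin at positions -100 and -93, counted from the base before the start as -1. The full nuclear factor I palindrome, TTGGC and GCCAA with 5 bases between them, was in 0 of the 6 windows and in 0.0407% of all windows. The glucocorticoid receptor half-site AGAACA, searched on both strands, was in 1 of the 6, that of Csn1s2a, and in 16.2% of all windows. These matches describe letters in short windows and not bound sites, and enhancers farther away were not searched.

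Expression was read as FPKM, which is scaled for gene length and for sequencing depth but not for the make-up of each library. Levels were compared between genes and between libraries on that scale, and other scalings were run as alternatives. Whole reads could be recovered from the smallest steps between values, and they came to between 15245981 and 16983352 per library. One pair of libraries stood apart from the others. CXCL14 replicate 1 and untreated replicate 1 had a mean chi-square per gene of 2.19 on the recovered reads, where counting noise alone gives about 1, and the other 14 pairs lay between 21.8 and 80.8. Whether CXCL14 replicate 1 is labelled correctly, or shares RNA or tissue with untreated replicate 1, was not tested. Both libraries were used as labelled, so every CXCL14 mean and fold change over 6 libraries includes that library, and results are also given without it. Luminal epithelial markers were present in every library, with a summed FPKM over 17 genes between 271 and 349 with CXCL14 and between 141 and 422 in untreated glands. The glands were also rich in B-cell transcripts, with a summed FPKM over 8 markers between 1188 and 1428 with CXCL14 and between 1302 and 1462 in untreated glands.

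Milk protein transcripts were abundant in CXCL14 replicates 2 and 3 and scarce in CXCL14 replicate 1 and in all 3 untreated libraries. The summed FPKM of the 8 genes was 17.6, 503 and 736 in CXCL14 replicates 1, 2 and 3, against 12.3, 22.3 and 11.9 in untreated replicates 1, 2 and 3. CXCL14 replicate 1 therefore lay inside the untreated range, while the other CXCL14 libraries lay far above it. As a share of recovered reads, scaled to a common library total as CPM, the 8 genes held 19.1, 592 and 899.6 CPM in CXCL14 replicates 1, 2 and 3, with Wilson 95% intervals of 17.1 to 21.5, 580 to 604 and 885 to 914. In untreated replicates 1, 2 and 3 they held 13.8, 27.5 and 14.9 CPM, with intervals of 12.1 to 15.8, 25.0 to 30.2 and 13.2 to 16.9. These intervals cover counting error only, and they do not overlap between CXCL14 replicates 2 and 3 and any other library. In bulk tissue, more secretory cells and more RNA per secretory cell cannot be told apart. On log2(sum + 1) the groups differed by 3.59 (means of 7.57 with CXCL14 and 3.99 in untreated glands), and the two-sided exact permutation test over 20 assignments gave p = 0.2, where the smallest p that 3 against 3 libraries allow is 0.1.

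**Figure D1:**
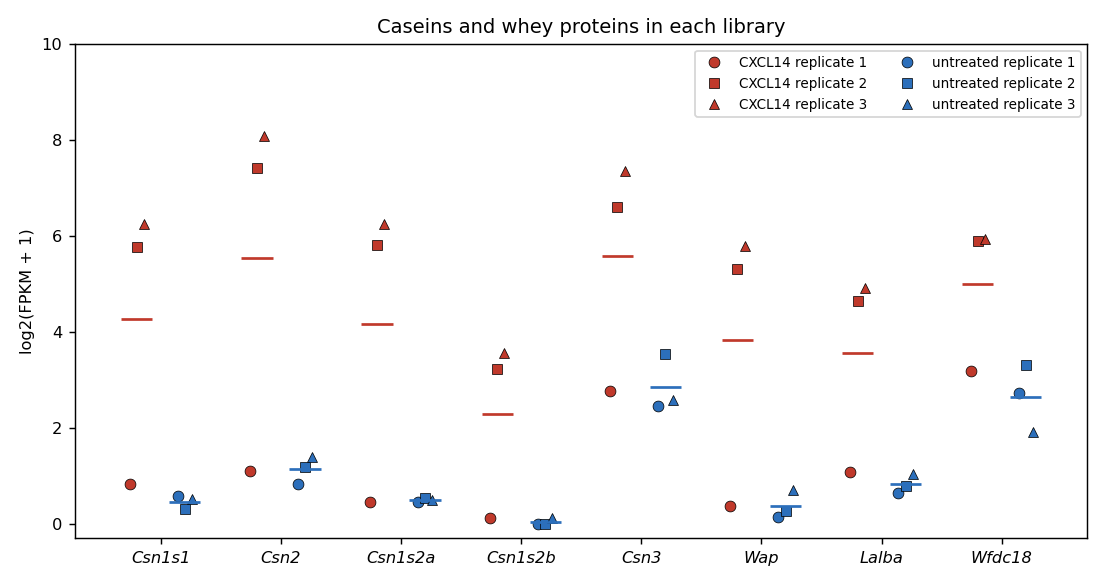
Level of each milk protein gene as log2(FPKM + 1), by gene along the horizontal axis, with CXCL14 libraries in red on the left of each gene and untreated libraries in blue on the right; marker shapes give the replicate number and bars the mean of 3 libraries. CXCL14 replicates 2 and 3 stand above every other library for all 8 genes, and CXCL14 replicate 1 stands with the untreated libraries.

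Beta-casein, from Csn2, was the most abundant of the 8 transcripts in CXCL14 replicates 2 and 3. It measured 1.13, 171 and 271 FPKM in CXCL14 replicates 1, 2 and 3, against 0.772, 1.26 and 1.63 FPKM in untreated replicates 1, 2 and 3. These values stood for 20, 3211 and 5282 recovered reads with CXCL14, against 14, 22 and 31 reads in untreated glands. CXCL14 replicates 2 and 3 were 105 and 166 times the highest untreated library, and CXCL14 replicate 1 was within the untreated range. The means were 147 ± 136 FPKM with CXCL14 and 1.22 ± 0.428 FPKM in untreated glands (SD, n = 3 each); the SD is near the mean in the CXCL14 group.

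Alpha-S1-casein, from Csn1s1, is needed in mammals for casein to leave the endoplasmic reticulum efficiently. It measured 0.760, 53.1 and 74.5 FPKM in CXCL14 replicates 1, 2 and 3, against 0.482, 0.227 and 0.417 FPKM in untreated replicates 1, 2 and 3. The groups did not overlap, but CXCL14 replicate 1 with 17 recovered reads stood close to untreated replicate 1 with 11. Csn1s2a, an alpha-S2-like casein of the mouse, measured 0.371, 54.7 and 74.6 FPKM with CXCL14, against 0.364, 0.439 and 0.403 FPKM in untreated glands in the same order of replicates. Its 4 low libraries held 6 or 7 reads each, and CXCL14 replicates 2 and 3 held 936 and 1324. Csn1s1 and Csn1s2a were nearly equal in the high libraries, with a ratio of Csn1s2a to Csn1s1 of 1.03 in CXCL14 replicate 2 and of 1.00 in CXCL14 replicate 3.

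Csn1s2b, the second alpha-S2-like casein gene of the mouse, was the least abundant member in every library. It measured 0.0839, 8.31 and 10.7 FPKM in CXCL14 replicates 1, 2 and 3, against 0, 0 and 0.0781 FPKM in untreated replicates 1, 2 and 3. In reads these were 1, 105 and 140 with CXCL14, against 0, 0 and 1 in untreated glands. A level of 0 or 1 read cannot be told from another at this depth, so no ratio is given.

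Kappa-casein, from Csn3, coats the surface of the micelle and keeps it in suspension. It measured 5.82, 95.9 and 162 FPKM in CXCL14 replicates 1, 2 and 3, against 4.47, 10.6 and 4.97 FPKM in untreated replicates 1, 2 and 3. Csn3 had the highest level of the 5 caseins in all 4 low libraries, and its excess in the high libraries was smaller than that of Csn2. CXCL14 replicates 2 and 3 were 9.04 and 15.3 times the highest untreated library, which was untreated replicate 2.

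Wap encodes whey acidic protein, a main whey protein of rodent milk. It measured 0.283, 38.5 and 54.3 FPKM in CXCL14 replicates 1, 2 and 3, against 0.0926, 0.192 and 0.616 FPKM in untreated replicates 1, 2 and 3. The low libraries rested on few reads, 3 in CXCL14 replicate 1 and 1, 2 and 7 in the untreated libraries, so the 6.65-fold range among untreated libraries is poorly determined. Lalba encodes alpha-lactalbumin, which turns the galactosyltransferase B4galt1 into lactose synthase. It measured 1.12, 23.9 and 29.3 FPKM with CXCL14, against 0.549, 0.730 and 1.04 FPKM in untreated glands in the same order of replicates. All 3 CXCL14 libraries lay above the untreated libraries, CXCL14 replicate 1 by a small margin at 14 reads, a number that untreated replicate 3 also had.

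Wfdc18, which encodes a small secreted protein with a WAP-type domain, had the highest low-library level of the whey genes and the smallest excess. It measured 8.03, 58.1 and 60.4 FPKM in CXCL14 replicates 1, 2 and 3, against 5.55, 8.86 and 2.75 FPKM in untreated replicates 1, 2 and 3. CXCL14 replicates 2 and 3 were 6.55 and 6.82 times the highest untreated library, and CXCL14 replicate 1 lay between untreated replicates 1 and 2.

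The make-up of the milk protein transcripts also differed between the high and the low libraries. Csn2 made up 33.9% and 36.8% of the summed FPKM in CXCL14 replicates 2 and 3, and 6.40% in CXCL14 replicate 1, against 6.29%, 5.63% and 13.7% in untreated replicates 1, 2 and 3. Wfdc18 made up 11.5% and 8.20% in CXCL14 replicates 2 and 3 and 45.6% in CXCL14 replicate 1, against 45.2%, 39.7% and 23.1% in the untreated libraries. Csn3 and Wfdc18 held the top 2 ranks in each low library, and Csn2 and Csn3 held them in each high library. The ratio of Csn2 to Csn3 was 0.193, 1.78 and 1.67 in CXCL14 replicates 1, 2 and 3, against 0.173, 0.118 and 0.327 in untreated replicates 1, 2 and 3. The 5 caseins together made up 76.1% and 80.4% in CXCL14 replicates 2 and 3 and 46.4% in CXCL14 replicate 1, against 49.6%, 56.1% and 63.0% in the untreated libraries.

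**Figure D2:**
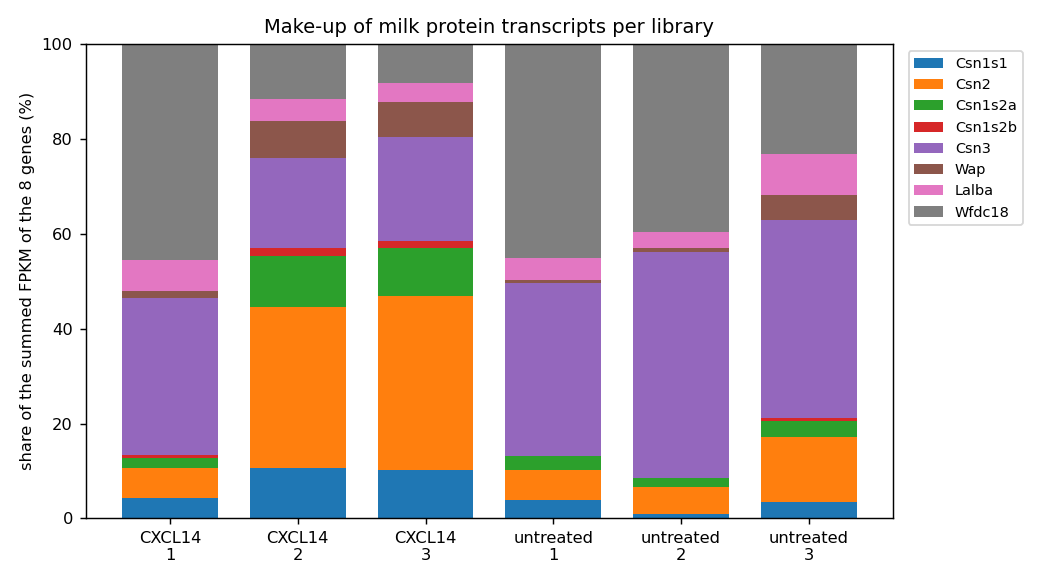
Share of each gene in the summed FPKM of the 8 milk protein genes, in percent, for the 3 CXCL14 libraries on the left and the 3 untreated libraries on the right. Csn2 fills 33.9% and 36.8% of CXCL14 replicates 2 and 3, while Csn3 and Wfdc18 fill most of the other 4 libraries.

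The high libraries also differed from each other. CXCL14 replicate 3 exceeded CXCL14 replicate 2 for each of the 8 genes, by a ratio of 1.69 for Csn3 and 1.59 for Csn2, of 1.41 for Wap and 1.40 for Csn1s1, of 1.36 for Csn1s2a, 1.29 for Csn1s2b and 1.23 for Lalba, and of 1.04 for Wfdc18. The order of levels in CXCL14 replicate 3 was Csn2, Csn3, Csn1s2a, Csn1s1, Wfdc18, Wap, Lalba and Csn1s2b. In CXCL14 replicate 2 it was the same except that Wfdc18 stood between Csn3 and Csn1s2a. In both libraries Csn1s1 and Csn1s2a are neighbours in this order and differ by less than the 2 libraries differ for either gene.

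All 8 genes had a positive log2 fold change (CXCL14 minus untreated, on the log2(FPKM + 1) scale), and none passed the test with all 6 libraries. The values were 4.40 for Csn2 (SE 1.73), 3.82 for Csn1s1 (SE 1.34), 3.68 for Csn1s2a (SE 1.44), 3.46 for Wap (SE 1.35), 2.73 for Lalba (SE 0.96), 2.72 for Csn3 (SE 1.13), 2.36 for Wfdc18 (SE 0.77) and 2.26 for Csn1s2b (SE 0.85). Their median was 3.09, beside -0.06 over the 11516 genes tested, a set that leaves out Csn1s1, Csn1s2a, Csn1s2b and Wap. The scale understates the change of genes with low values, Csn1s2b above all. Csn2, Csn3, Lalba and Wfdc18, 4 of the 8, were at or above 1 FPKM in 3 or more libraries, as were 65.9% of the 17464 symbols, and they were tested with limma-trend among 11516 genes, each with an adjusted p of 0.573. Csn1s1, Csn1s2a, Csn1s2b and Wap reached it only in CXCL14 replicates 2 and 3. They were tested where 2 libraries at that level were enough, a filter which they passed through those libraries and so had to differ there. In that fit over 11793 genes all 8 had an adjusted p of 0.569 with limma-trend. With no filter, over 17464 genes, all 8 had a limma-trend adjusted p of 0.661, and 4 of the 8 had an unadjusted p under 0.05. Among the 11516 genes the unadjusted limma-trend p of the 4 members tested was under 0.05, as it was for 3.41% of genes with CXCL14 higher and 7.77% in either direction. In the fits over 11516 and 11793 genes limma-trend called 0 genes (0%), although the unadjusted p of 895 and 923 of them was under 0.05. The count from voom on recovered reads was also 0, and 791 genes had such a p. Of the 4 members tested with voom, 0 were among these 791. With median-ratio scaling 3 of the 4 members had an unadjusted limma-trend p under 0.05. With a pseudocount of 0.1 or with the replicate block all 4 did. By log2 fold change among the 11793 genes, Csn2, Lalba, Csn3 and Wfdc18 ranked 1, 8, 10 and 16. Csn1s1, Csn1s2a, Wap and Csn1s2b ranked 2, 4, 5 and 19. These last 4 entered that set only through the libraries in which they are high, which favours a high rank. The ranks also do not take the spread between libraries into account.

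Groups did not overlap, with CXCL14 higher, for Lalba, 1 of the 4 members among the 11516 genes, where 4.74% did so. The same held for Csn1s1 and Csn1s2b, which are outside that count, so no share over all genes stands beside them. CXCL14 replicate 1 and untreated replicate 3 held equal reads of Lalba, 14 each, and of Csn1s2b, 1 each. For these 2 genes the order is therefore not read as a difference. For Csn2, Csn1s2a, Csn3, Wap and Wfdc18 CXCL14 replicate 1 overlapped the untreated libraries. CXCL14 replicates 2 and 3 were both above every untreated library for the 4 members among the 11516 genes, where 13.4% of genes were. For the 4 members outside it, the same order holds, but in the fit over 11793 genes their selection by those libraries fixed it. Without CXCL14 replicate 1, limma-trend called the 4 members tested among the 11516 genes higher, where 2.16% of genes were called higher and 5.18% in either direction. The log2 fold change was then 6.62 for Csn2 (limma-trend adjusted p = 0.00373), 3.96 for Lalba (limma-trend adjusted p = 0.00373), 4.12 for Csn3 (limma-trend adjusted p = 0.0236) and 3.27 for Wfdc18 (limma-trend adjusted p = 0.0273). With both libraries numbered 1 left out, Csn2 and Lalba were called, 2 of the 4 tested, where 0.122% of genes were called higher and 0.13% in either direction, and Csn3 (limma-trend adjusted p = 0.0804) and Wfdc18 (limma-trend adjusted p = 0.113) missed the threshold. Csn1s1, Csn1s2a, Wap and Csn1s2b had log2 fold changes of 5.54, 5.53, 5.19 and 3.35 without CXCL14 replicate 1. In the fit over 11793 genes they were called there by limma-trend, where 2.6% of genes were called higher and 5.73% in either direction, and by voom, where 2.29% were called higher and 2.86% in either direction. Limma-trend also called them with both libraries numbered 1 left out, where 0.237% were called higher and 0.263% in either direction. Since these 4 genes entered that fit only through the CXCL14 libraries in which they are high, their calls are not read against those shares. Leaving out the treated library that lies with the untreated ones widens the difference by construction, and these values are no separate evidence of an effect of CXCL14.

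**Figure D3:**
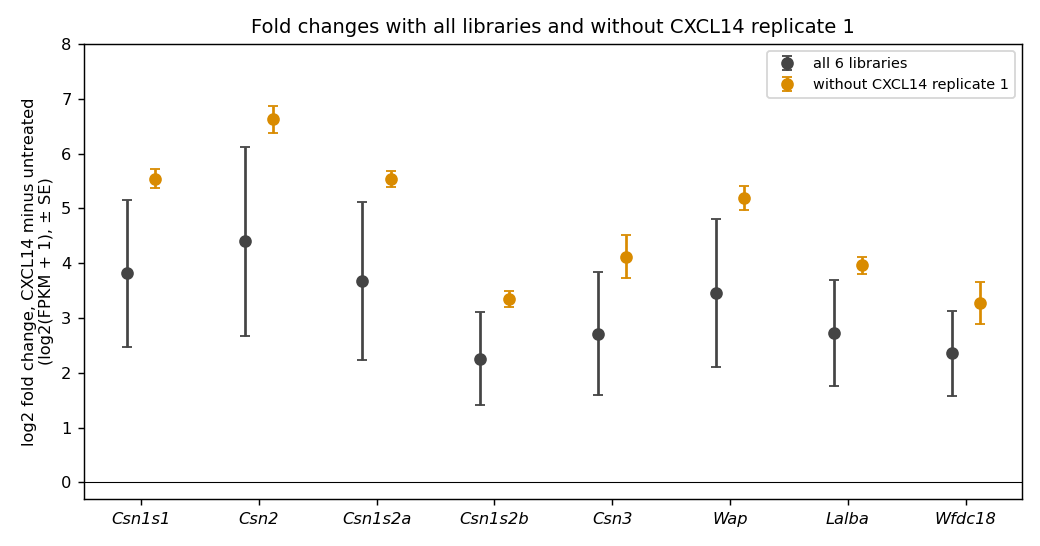
Log2 fold change of each milk protein gene on the log2(FPKM + 1) scale, CXCL14 minus untreated, with all 6 libraries in grey and without CXCL14 replicate 1 in orange; bars are the moderated SE. Without CXCL14 replicate 1 the SEs are between 0.15 and 0.39, against 0.77 to 1.73 with all libraries.

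The mean of the luminal epithelial markers did not show the split of the milk protein transcripts. The mean log2(FPKM + 1) of the 8 genes was 1.23, 5.58 and 6.01 in CXCL14 replicates 1, 2 and 3, against 0.97, 1.23 and 1.09 in untreated replicates 1, 2 and 3. The mean over the 17 luminal markers was 3.32, 2.98 and 3.27 in CXCL14 replicates 1, 2 and 3, against 3.22, 3.57 and 2.36 in untreated replicates 1, 2 and 3. The luminal means of CXCL14 replicates 2 and 3 thus lay within the untreated range. Milk protein mean minus luminal mean was -2.09, 2.60 and 2.74 with CXCL14, against -2.25, -2.34 and -1.28 in untreated glands, and the group means of this quantity differed by 3.04. Of the 16 luminal markers tested 10 were positive (median log2 fold change 0.19), and 0 passed the test with all libraries or without CXCL14 replicate 1. The log2 fold change was negative for Krt19, Cdh1, Esr1, Prlr, Areg and Foxa1, from -0.46 (SE 0.47) for Prlr to -0.02 (SE 0.35) for Cdh1. Krt8, a keratin of luminal cells, measured 59.9, 62.1 and 85.2 FPKM with CXCL14, against 56.6, 78.6 and 20.3 FPKM in untreated glands. Elf3, an epithelial transcription factor, was the 1 of the 17 markers highest in the same libraries as the milk proteins, at 2.99, 5.67 and 6.96 FPKM with CXCL14, against 3.37, 3.35 and 0.927 FPKM in untreated glands. Untreated replicate 3 had the lowest luminal level of the 6 libraries.

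**Figure D4:**
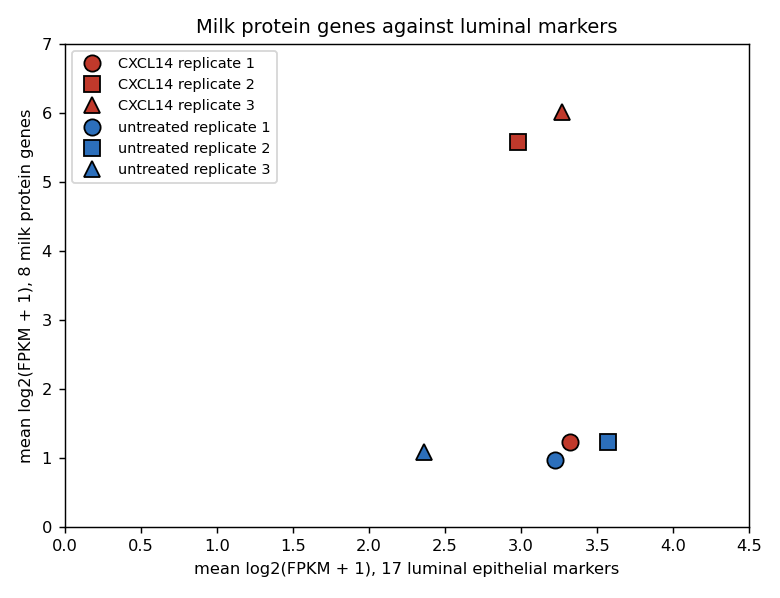
Mean log2(FPKM + 1) of the 8 milk protein genes (vertical) against that of 17 luminal epithelial markers (horizontal), with a point for each library. CXCL14 replicates 2 and 3 lie at 5.58 and 6.01 on the vertical axis and the other 4 libraries between 0.97 and 1.23, while their luminal means overlap.

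Of the 16 prolactin, STAT5 and Elf5 genes, 5 were highest in CXCL14 replicates 2 and 3, namely Elf5, Cish, Socs2, Socs3 and, by a small margin, Jak2. These 2 libraries were both above every untreated library for 13.4% of the 11516 genes tested. The groups did not overlap for Cish alone, 1 of the 16, beside 4.74% of all genes tested with CXCL14 higher. That count is near the share over all genes and is not read as a result about the list. Prlr, the prolactin receptor, measured 9.10, 4.03 and 5.32 FPKM in CXCL14 replicates 1, 2 and 3, against 9.22, 15.9 and 3.82 FPKM in untreated replicates 1, 2 and 3, so its groups overlapped and it was not high where milk protein transcripts were. Stat5a measured 27.0, 28.4 and 24.6 FPKM with CXCL14, against 26.0, 21.4 and 25.5 FPKM in untreated glands. Jak2, at 25.3, 26.0 and 27.4 FPKM with CXCL14, against 24.4, 25.6 and 25.9 FPKM in untreated glands, differed by 0.05 on the log2 scale (SE 0.08), and Stat5b by -0.11 (SE 0.12). Elf5 measured 1.15, 4.80 and 7.63 FPKM with CXCL14, against 1.05, 1.89 and 0.819 FPKM in untreated glands, the same high libraries as for the caseins. Cish, a feedback inhibitor induced by STAT5, measured 12.9, 20.4 and 23.5 FPKM with CXCL14, against 12.5, 11.9 and 10.1 FPKM in untreated glands, without overlap. Socs2 and Socs3, which are feedback inhibitors of cytokine signalling, had log2 fold changes of 0.42 (SE 0.23) and 0.51 (SE 0.27). Of the 16 genes of this list 9 were positive (median log2 fold change 0.05), and 0 passed with all libraries. Without CXCL14 replicate 1, 2 of 16 were called higher, Elf5 by 1.68 (limma-trend adjusted p = 0.0413) and Cish by 0.88 on the log2 scale (limma-trend adjusted p = 0.0336), and 0 lower, where 2.16% of all genes were called higher and 5.18% in either direction, and with both libraries numbered 1 left out neither was called. T and B cells, which are abundant in these libraries, also express Jak2, Stat5a, Stat5b and Cish.

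Other genes of milk secretion followed the milk proteins in part. Of 14 listed genes 8 were tested and 7 were positive (median log2 fold change 1.02), and 0 passed with all libraries. Without CXCL14 replicate 1, 4 were called higher, Spp1, Ltf, Btn1a1 and Muc1, and 0 lower, where 2.16% of all genes were called higher and 5.18% in either direction, and with both libraries numbered 1 left out Spp1 and Ltf were still called. Spp1, the secreted phosphoprotein osteopontin, measured 2.92, 95.4 and 145 FPKM in CXCL14 replicates 1, 2 and 3, against 2.23, 2.84 and 1.12 FPKM in untreated replicates 1, 2 and 3. Btn1a1, a membrane protein needed for milk fat globule release, measured 0.780, 4.72 and 7.14 FPKM with CXCL14, against 0.728, 1.15 and 0.346 FPKM in untreated glands. With all libraries the log2 fold change was 1.30 (SE 0.54) for Muc1, an apical mucin, and 2.89 (SE 1.02) for Ltf, the iron-binding protein lactoferrin. Glycam1, whose product is found in milk and in the high endothelial venules of lymph nodes, did not follow them, at 184, 541 and 672 FPKM with CXCL14, against 199, 686 and 500 FPKM in untreated glands.

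Lactose synthesis and casein processing genes showed smaller differences. B4galt1, the catalytic partner of alpha-lactalbumin, measured 64.2, 74.9 and 68.3 FPKM in CXCL14 replicates 1, 2 and 3, against 61.3, 57.8 and 68.1 FPKM in untreated replicates 1, 2 and 3, so the groups overlapped where Lalba in CXCL14 replicates 2 and 3 was 22.9 and 28.1 times the highest untreated library. Slc2a1, the glucose transporter that supplies lactose synthesis, measured 42.6, 69.5 and 61.7 FPKM with CXCL14, against 38.8, 35.7 and 42.5 FPKM in untreated glands, a log2 fold change of 0.53 (SE 0.19) that did not pass, with the lowest CXCL14 library next to the highest untreated one. Pgm1, a phosphoglucomutase, had a log2 fold change of -0.18 (SE 0.11). Of the 7 lactose genes 5 were positive and 0 passed with all libraries, and Slc2a1 was the 1 called higher without CXCL14 replicate 1, with 0 lower, beside 2.16% of all genes called higher. That call was lost with both libraries numbered 1 left out (limma-trend adjusted p = 0.141). Of 5 casein phosphorylation and secretory pathway genes 3 were tested and 0 passed in either fit, with log2 fold changes of -0.13 (SE 0.16) for the vesicle GTPase Rab3d and 0.22 (SE 0.33) for the transcription factor Creb3l2. Fam20c, the kinase that phosphorylates caseins, was low throughout, at 0.918, 0.630 and 0.664 FPKM with CXCL14, against 0.899, 1.02 and 0.369 FPKM in untreated glands.

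Relatives of Wap and Wfdc18 with the same kind of domain did not all share a pattern. Slpi, a secreted protease inhibitor of epithelia and neutrophils, measured 8.49, 55.3 and 54.8 FPKM in CXCL14 replicates 1, 2 and 3, against 8.81, 3.34 and 4.11 FPKM in untreated replicates 1, 2 and 3. Wfdc2, an epithelial member of the family, measured 37.5, 18.1 and 22.3 FPKM with CXCL14, against 32.1, 37.7 and 14.9 FPKM in untreated glands. For Wfdc17 the log2 fold change was 0.15 (SE 0.41). Of 3 family members tested, 0 passed with all libraries and Slpi was called higher without CXCL14 replicate 1, with 0 lower, beside 2.16% of all genes called higher. Low-level members included Wfdc3, at 0.0794, 0.862 and 0.867 FPKM with CXCL14, against 0.0778, 0.0604 and 0.0370 FPKM in untreated glands, and Wfdc12, listed at 0 outside CXCL14 replicates 2 and 3, where it had 0.502 and 0.403 FPKM. Wfdc21, at 1.38 and 1.20 FPKM there, and Wfdc5, with at most 0.0522 FPKM, were also highest in CXCL14 replicates 2 and 3, and Wfdc1 was not. Of 9 listed genes in or near the casein locus, 2 were in the tables. Amtn, an enamel protein gene, had 0.475 and 0.744 FPKM in CXCL14 replicates 2 and 3 and was listed at 0 in the other 4 libraries. Sult1d1 had at most 0.0488 FPKM.

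**Figure D5:**
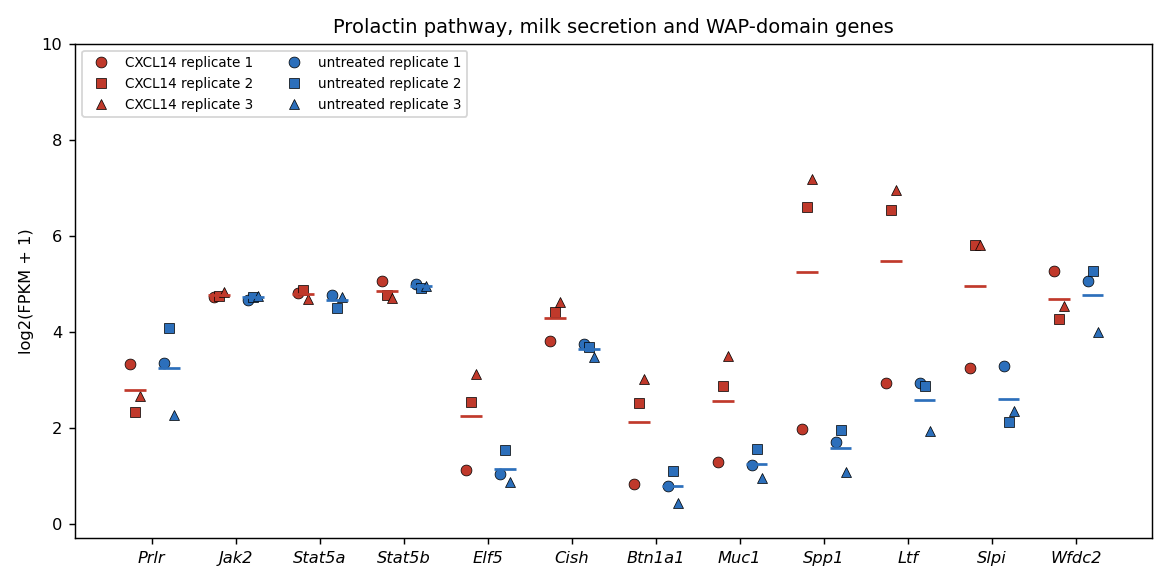
Levels as log2(FPKM + 1) of prolactin pathway genes (Prlr to Cish), milk secretion genes (Btn1a1 to Ltf) and relatives of Wap (Slpi and Wfdc2), with CXCL14 libraries in red on the left of each gene, untreated libraries in blue on the right, and bars for the mean of 3 libraries. Elf5, Cish, Btn1a1, Muc1, Spp1, Ltf, Slpi and, narrowly, Jak2 are highest in CXCL14 replicates 2 and 3, and Prlr, Stat5a, Stat5b and Wfdc2 are not. CXCL14 replicate 1 lies above all untreated libraries only for Cish, Spp1, Stat5a and Stat5b.

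The genes most like the members across the 6 libraries were found by the root mean square difference between their centred log2(FPKM + 1) profile and the members' mean profile. The 8 nearest named genes were Spp1 (0.37 log2 units), Ltf (0.44), Lcn2 (0.62), Gdpd3 (0.70), S100a9 (0.76), Retnlg (0.89), Slpi (0.90) and S100a8 (0.97), beside a median of 2.26 over all 11516 genes. For scale, the members Lalba and Csn3 were both at 0.39 and Csn2 at 0.94 from that profile, of which they are a part. Lcn2, a secreted protein that binds bacterial siderophores, measured 12.0, 138 and 219.6 FPKM in CXCL14 replicates 1, 2 and 3, against 12.0, 24.4 and 9.68 FPKM in untreated replicates 1, 2 and 3. Gdpd3, a lysophospholipase D, measured 2.59, 27.4 and 33.6 FPKM with CXCL14, against 2.18, 1.83 and 2.86 FPKM in untreated glands. None of these 8 genes passed with all 6 libraries. S100a8, S100a9 and Retnlg are also on the list of neutrophil markers, and Lcn2, Ltf and Slpi are known from neutrophils as well as from epithelium. Likeness over 6 libraries is a description, since the libraries fall apart into 2 high and 4 low ones.

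Other cell types also differed between the high and the low libraries, and their part in the milk protein result was not tested. Neutrophil markers, 8 genes, had a summed FPKM of 27.8, 188 and 257 in CXCL14 replicates 1, 2 and 3, against 34.1, 13.6 and 6.53 in untreated replicates 1, 2 and 3. Of the 5 neutrophil markers tested 0 passed with all libraries and 4 were called higher without CXCL14 replicate 1, where 2.16% of all genes were called higher. With both libraries numbered 1 left out S100a8, S100a9 and Retnlg were called and Ngp was not. Of the 3 neutrophil markers too low to test, Mmp8 measured 0.262, 1.09 and 1.62 FPKM with CXCL14, against 0.154, 0 and 0.0732 FPKM in untreated glands. Ly6g measured 0, 0.453 and 1.44 FPKM with CXCL14, against 0.0672, 0.0696 and 0 FPKM in untreated glands, so both were highest in the same libraries as the milk proteins. Elane was at or near 0, with at most 0.209 FPKM. T-cell markers, 8 genes, summed to 811, 518 and 427 with CXCL14, against 883, 691 and 884 in untreated glands, with 0 of 8 passing with all libraries and 5 called lower without CXCL14 replicate 1, where 5.18% of genes were called in either direction. With both libraries numbered 1 left out these 5 calls were lost, with limma-trend adjusted p-values between 0.104 and 0.156. White adipocyte markers, 10 genes, summed to 1021, 1914 and 3157 with CXCL14, against 949, 1837 and 1981 in untreated glands. Blood endothelial markers, 8 genes, summed to 396, 778 and 1216 with CXCL14, against 375, 810 and 572 in untreated glands, and 8 basal and myoepithelial markers to 35.3, 75.1 and 118, against 30.7, 96.2 and 70.3. CXCL14 replicate 1 and untreated replicate 1 were the 2 lowest libraries for these 3 lists, and 0 of their tested members passed in either fit, as for the 8 B-cell markers. Of 6 markers of salivary and other secretory glands 4 were in the tables, Dcpp1 had at most 0.0704 FPKM, and 0 of the 2 tested passed in either fit. Aqp5, a water channel, measured 25.7, 5.20 and 6.22 FPKM with CXCL14, against 22.2, 23.7 and 9.76 FPKM in untreated glands.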

How the data were processed

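RNA of 6 mammary gland libraries was extracted with Trizol and sequenced from NEBNext Ultra libraries, per the labels' protocols. The authors deposited FPKM values, 1 per gene symbol and library, for 17464 symbols, per the file headers. HTSeq 0.6.0, HISAT2 2, Bowtie2 2.2.3 and mm8 appear without role or order in the submitters' processing notes. The strand setting, filters and gene lengths were not given in the sources used here, so reads shared by overlapping or near-identical genes may be split.

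Reads were recovered from the FPKM steps for 17464 genes within 0.004 reads, up to a common factor per gene. They served for depth, library pairs (genes with at least 10 reads), Wilson 95% intervals and voom. The test was limma-trend (limma 3.58.1, R 4.3.3) on log2(FPKM + 1), with genes at or above 1 FPKM in 3 or more libraries, Benjamini-Hochberg over all of them and a threshold of 0.05. The code was tested on simulated data. All 8 members were named. From the milk secretion, lactose, casein processing, prolactin and WAP-domain lists the called genes or those of smallest p were named. From the cell-type lists only some of these were named. Jak2, Stat5a, Stat5b, Prlr, Krt8, Krt19, Cdh1, Esr1, Areg, Foxa1, B4galt1, Glycam1, Fam20c, Wfdc1, Wfdc2, Wfdc3, Wfdc5, Wfdc12, Wfdc21, Amtn, Sult1d1, Aqp5, Dcpp1, Socs2, Socs3, Elf3, Mmp8, Elane and Ly6g were named after their values were seen. The members and lists were chosen with earlier results of these data known. Promoter windows come from RefSeq (GRCm38.p6), which is not the build mm8, and say nothing about read positions.

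Replicate numbers were not taken as pairs. Deviations of same-numbered libraries from the group means correlated across genes at 0.69, -0.30 and 0.06 for numbers 1, 2 and 3. With 3 libraries per group these correlations are not independent, and they cannot show whether the libraries are paired. Alternatives were another filter, pseudocount (0.1), scaling, voom with TMM scaling, the block, and libraries left out; the fits that join a left-out library with another filter were chosen after seeing the data.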

Additional observations from a re-analysis of the deposited data

How the results depend on the processing

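All 8 genes had a positive log2 fold change in each alternative that gave a value, 132 of 132. This count is not a test of the sign. A changed filter or the replicate block alone leaves the fold change as it was. Each fit with libraries left out kept at least 1 of the CXCL14 libraries in which these genes are high. With all 6 libraries the count of called members was 0 under every alternative filter, pseudocount, scaling, voom and the replicate block. With the replicate block limma-trend gave adjusted p = 0.653 for Csn2, Csn3, Lalba and Wfdc18 and called 0 genes, with 802 at an unadjusted p under 0.05. Whether same-numbered libraries are pairs could not be determined. Leaving out 1 library at a time gave between 0 and 4 called members, 0 and 597 called genes, and 0 and 6 called genes of the milk secretion, prolactin, luminal and basal lists, the upper values without CXCL14 replicate 1 and 0 for each other library. Without both libraries numbered 1 these counts were 2, 15 and 2. Without CXCL14 replicate 1 and with genes at or above 1 FPKM in 2 or more libraries they were 8, 676 and 7, with voom 8, 337 and 7, and with median-ratio scaling 8, 527 and 7. With both libraries numbered 1 left out and that filter they were 6, 31 and 2. In these fits 4 of the 8 members passed the filter only through the CXCL14 libraries in which they are high. Of calls in that filter without CXCL14 replicate 1, 307 were higher and 369 lower with FPKM as deposited, against 395 and 132 with median-ratio scaling and 270 and 67 with voom, where the median over all genes moved to 0.01 and 0.00 from -0.10. Depth limits Csn1s2b, Wap and Csn1s2a in the low libraries, which held at most 7 reads of each. The cause of the split between CXCL14 replicate 1 and the other CXCL14 libraries was not tested.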
